A study of Mus musculus with 32 samples.

Results

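Old mice given BI01 were set against young mice given vehicle, both 7 days after injury of the tibialis anterior, a fast-twitch muscle of the shin. The comparison used 8 of the 32 RNA-seq libraries of the series, chosen by the group in the name of each column of the count table: 4 libraries of old BI01 muscle (numbered 1 to 4 there) and 4 of young vehicle muscle (numbered 4 to 7). It covered every gene measured. All mice were C57BL/6J, a wild-type inbred strain, and all 8 muscles had been injured with barium chloride (BaCl in the labels). The labels give the ages as old and young, with no number. A further 4 libraries, old vehicle muscle at day 7 (numbered 7 to 10), came from mice with the injury and the vehicle but no BI01. They are quoted beside the comparison because age and BI01 differ together between the 2 groups compared and cannot be told apart within it. BI01 is called a senolytic in the labels, that is, an agent meant to clear senescent cells, and the title of the series names the interaction of p53 with MDM2 as what is inhibited. The sources used here do not give its dose or days of dosing.

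Barium chloride kills muscle fibres, and the muscle is rebuilt over the following weeks. Macrophages and other immune cells clear the debris, satellite cells (the stem cells of muscle) divide and fuse into new fibres, and the new fibres then switch from embryonic to adult contractile proteins and rebuild glycolysis and respiration. Senescent cells are cells that have left the cell cycle for good and secrete inflammatory factors. The transcription factor p53 drives arrest or death in such cells, and MDM2 is the ligase that keeps p53 low.

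The old BI01 libraries held 17234091 to 21590707 counts each and the young libraries 15458439 to 17798256. Their scaling factors (the trimmed mean of M-values, TMM) were 1.45 to 1.67 in old BI01 and 1.06 to 1.42 in young muscle. The top 10 genes made up 9.52% to 15% of an old BI01 library and 15.7% to 22.7% of a young one, and mitochondrial genes 4.90% to 5.70% and 6.00% to 7.91%. The fibre markers Ckm, Acta1, Myh4, Tnnt3 and Pvalb were abundant in all 8 libraries, at 1190 to 4170 CPM against 2990 to 7130 CPM for the creatine kinase gene Ckm. The heart muscle genes Myh6 and Nppa had at most 14 counts in any of the 8 libraries. CPM are counts per 1000000 after this scaling. Within each group, every pair of libraries differed by more than counting noise. Whether the libraries of a group come from separate animals is not stated in the labels, so p-values measure the spread between these samples, which may be technical.

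Libraries of a group differed from each other. On the first principal component of the 12 day-7 libraries (25.2% of the variance), young library 7 lay at -92.2 and old BI01 library 2 at 62.4, the extremes among the 8 libraries compared. Old vehicle library 7 lay at 78.95 on it, and old vehicle library 10 lay at 105 on the second component (20%). What sets these libraries apart was not tested. The results below rest on all 8 libraries. Without young library 7, and without both it and old BI01 library 2, edgeR called 0 members of each of the 33 gene lists described below.

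**Figure D1:**
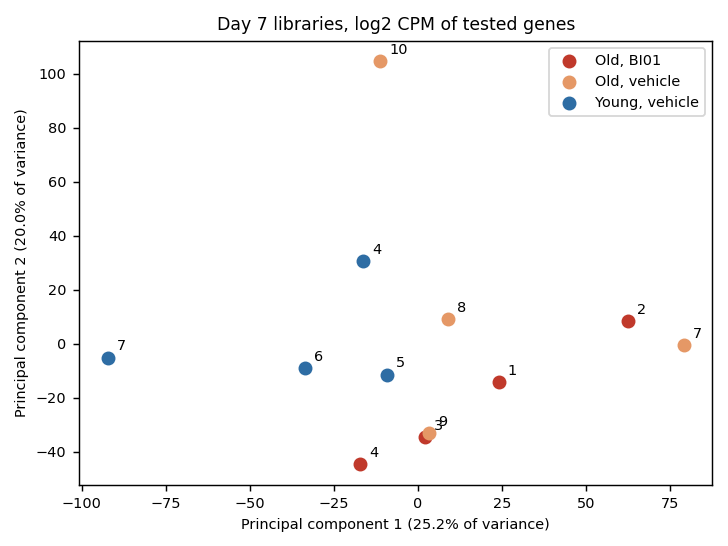
Day-7 libraries on the first (x axis) and second (y axis) principal components of log2 CPM over the tested genes, 1 point per library, labelled with its number in the count table. Young library 7 lies farthest left at -92.2, old BI01 library 2 lies right at 62.4, and the 3 groups do not form separate clusters.

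Across 17121 genes tested, 249 were called (1.45%), meaning an adjusted p under 0.05 by the edgeR quasi-likelihood test with Benjamini-Hochberg adjustment. Of these 78 were higher (0.456%) and 171 lower (0.999%) in old BI01 muscle, and 108 differed by more than 2-fold. Unadjusted p-values were under 0.05 for 3235 genes. For 1995 genes (11.7%) the 4 and 4 libraries did not overlap, 994 of them higher (5.81%) and 1001 lower (5.85%) in old BI01 muscle. Over all genes the log2 fold change had a median of 0.01, and the median 95% confidence interval of a gene was ±0.56. Fold changes are log2 of old BI01 over young vehicle throughout, so a positive value is higher in old BI01 muscle.

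The number of calls depended on single libraries. Without young library 7 it was 4, without old BI01 library 1 it was 10, without library 2 of that group 16 and without its library 3 19. Without young library 4 it was 110, whereas without old BI01 library 4 it was 416 and without young library 5 it was 527. Without both young library 7 and old BI01 library 2 it was 3, and a fit to the 8 libraries alone gave 14. Of those 14 genes, 12 were higher and 2 lower in old BI01 muscle, and 6 were among the 249. DESeq2 called 923 genes and limma voom 1034, which included 239 and 248 of the 249. Scaling by library size alone gave 706 calls, 641 higher and 65 lower (90.8% higher, against 31.3% with TMM), and moved the median of all genes to 0.29. Each of the 249 genes that a setting tested kept its sign under that setting. Without young library 7 the calls that remained were those of Mrpl1, Fgfbp3, Rnf170-ps and Gm42984, so every other call named below was lost without that library.

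**Figure D2:**
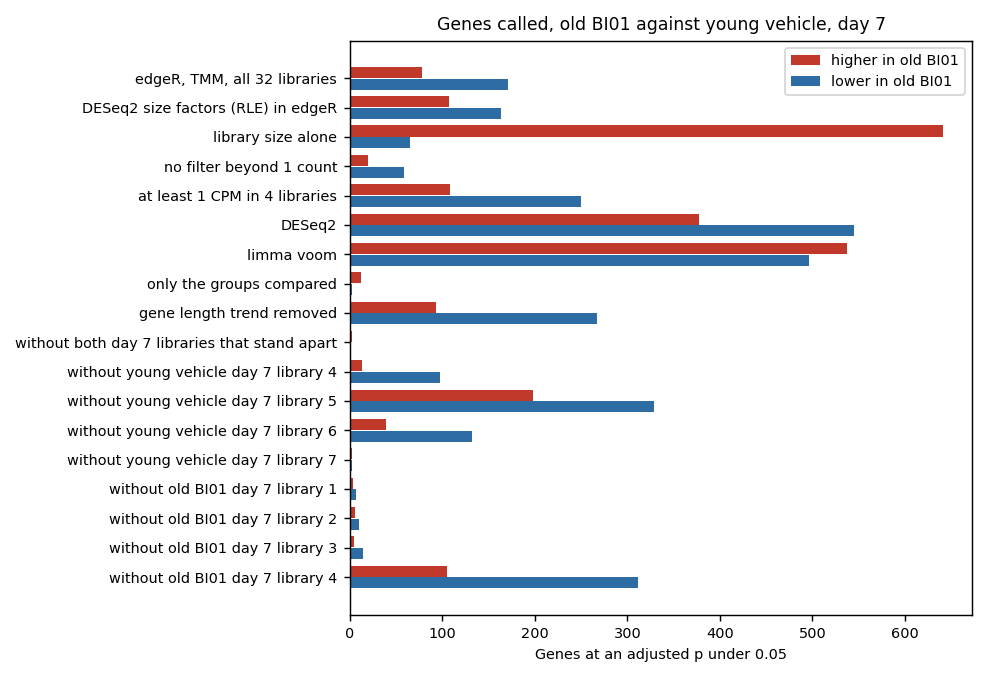
Number of genes at an adjusted p under 0.05 (x axis) for old BI01 against young vehicle muscle at day 7, a pair of bars per setting (y axis), higher in old BI01 in red and lower in blue. The count is 249 with all 32 libraries in the fit, 4 without young library 7 and 1034 with limma voom, and the bars for library size alone are mostly red (641 higher, 65 lower).

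Genes of mature fast fibres and of fuel use were among those lower in old BI01 muscle. Aqp4 (ENSMUSG00000024411, chromosome 18, 15389394 to 15403684, mm10), the water channel in the membrane of fast fibres, had the largest fall of the genes named. It stood at 0.45, 0.167, 0.465 and 1.65 CPM in old BI01 libraries 1 to 4, against 1.74, 3.6, 5.25 and 9.79 CPM in young libraries 4 to 7. The groups did not overlap, although the highest old BI01 library came close to the lowest young one, and the fall was 7.61-fold (log2 fold change -2.93, SE 0.67, adjusted p = 0.0334). Tuba8 (ENSMUSG00000030137, chromosome 6, 121210696 to 121226854), an alpha-tubulin of muscle, was at 5.47, 3.54, 4.26 and 10.3 CPM in old BI01 libraries, against 16.3, 28.6, 33.1 and 64.3 CPM in young ones. Every old BI01 library lay well below every young one (-2.60, SE 0.43, adjusted p = 0.00526). Its call was kept in 7 of the 8 fits that left out a library, and that of Aqp4 in 4.

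Mybpc2 (ENSMUSG00000038670, chromosome 7, 44501699 to 44524656), the fast isoform of myosin-binding protein C, was at 486, 251, 613 and 1050 CPM in old BI01 libraries, against 1590, 1890, 2100 and 4850 CPM in young ones. The groups did not overlap, and young library 7 lay far above the others (-2.12, SE 0.47, adjusted p = 0.0295, kept in 4 of 8). It was the only called member of 20 mature fast fibre genes, where 1 was called lower (0.999% of all genes were) and 0 higher. The list median was -0.88, against 0.01 over all genes. The median was -0.64 without young library 7 and -0.49 without both libraries that stand apart. DESeq2 called 7 of the 20 lower and limma voom 2, against 545 and 496 of all 17121 genes. In 7 of the 20 all old BI01 libraries lay below all young ones, against 5.85% of all genes. Myh4, the heavy chain of the fastest fibres, averaged 13320 ± 6570 CPM in old BI01 and 37430 ± 15840 CPM in young muscle (SD, n = 4 each), and was not called (-1.49, adjusted p = 0.0616). The calcium-binding protein gene Casq1 (-1.31, adjusted p = 0.0615), the myosin light chain gene Myl1 (-0.95, 0.0971) and the actin gene Acta1 (-0.93, 0.0981) were not called either. Myh2, a heavy chain of less extreme fast fibres, went against the list at 312 ± 180 CPM in old BI01 and 79.5 ± 42.0 CPM in young muscle (1.97, adjusted p = 0.248). Summed over the list, libraries held 37200 to 91300 CPM in old BI01 and 94400 to 201000 CPM in young muscle, which did not overlap. In whole muscle, fewer fibres and less RNA per fibre cannot be told apart.

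The other large falls were in genes of several functions. Frzb, a secreted inhibitor of Wnt signals, was 4.83-fold lower (-2.27, SE 0.48, adjusted p = 0.0257). Plin4, which coats lipid droplets, was 4.71-fold lower (-2.24, SE 0.47, adjusted p = 0.0288). Car14, a membrane carbonic anhydrase, averaged 1.29 ± 0.87 CPM in old BI01 and 5.74 ± 3.09 CPM in young muscle (-2.16, adjusted p = 0.0288). Slc47a1, an exporter of organic cations, fell by 2.02 and Cd24a, a surface glycoprotein of immune and progenitor cells, fell by 1.93 on the log2 scale (adjusted p = 0.0288 and 0.0218). Each of these 5 genes had its 4 old BI01 libraries below all 4 young ones, as the rule for naming them required. Plin4 overlaps Hdgfl2 and Car14 overlaps Aph1a in the annotation, so some of their reads may belong to the neighbour.

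**Figure D3:**
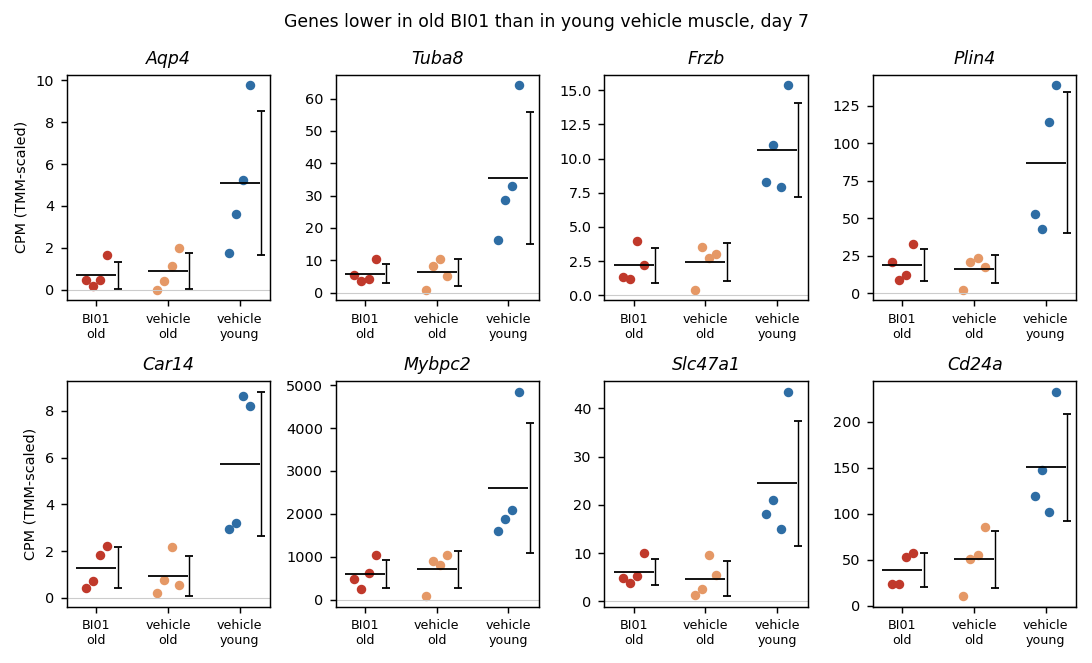
CPM (y axis, linear) of the 8 largest falls, 1 point per library, in old BI01, old vehicle and young vehicle muscle at day 7 (x axis); horizontal lines are means and bars are 1 SD (n = 4). In each gene the old BI01 points lie below the young points, for example 251 to 1050 against 1590 to 4850 CPM for Mybpc2. The old vehicle points lie below the young points too, except in Aqp4, where old vehicle library 10 (1.98 CPM) lies above young library 4 (1.74 CPM).

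Glycolysis and glycogen genes were the list with the most calls on the low side, with 3 of 21 lower (0.999% of all genes were), 0 higher and a median of -0.89. Fbp2 (ENSMUSG00000021456, chromosome 13, 62836877 to 62858422), the muscle fructose bisphosphatase, was at 1.61, 1.81, 2.86 and 2.53 CPM in old BI01 libraries, against 5.33, 8.78, 6.06 and 9.11 CPM in young ones. The groups were clearly apart (-1.73, SE 0.37, adjusted p = 0.0292, kept in 4 of 8). Gpi1, glucose phosphate isomerase, averaged 522 ± 109 CPM in old BI01 and 869 ± 225 CPM in young vehicle muscle (-0.74, SE 0.18, adjusted p = 0.0368). The phosphorylase kinase subunit gene Phka1 (-1.36, adjusted p = 0.0504), pyruvate kinase Pkm (-0.76, 0.0511), Ugp2, which makes UDP-glucose (-1.06, 0.0518), and lactate dehydrogenase Ldha (-0.99, 0.0541) lay just past the threshold. In 11 of the 21 genes all old BI01 libraries lay below all young ones, against 5.85% of all genes. DESeq2 called 16 and limma voom 12 of the 21 lower, against 545 and 496 of all 17121 genes. Without young library 7 edgeR called 0 of the 21, with the median at -0.65 (-0.53 without both libraries that stand apart). Summed CPM were 10200 to 22600 in old BI01 and 21800 to 44500 in young muscle, which overlapped slightly.

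Among the 13 genes encoded in mitochondrial DNA, 1 was called lower (0.999% of all genes were), 0 higher, and all 13 fold changes were negative. Their median was -0.62, or -0.32 with library size alone, which was -0.61 relative to the median of all genes under that scaling. The called gene was mt-Co3 (ENSMUSG00000064358, chromosome MT, 8607 to 9390), a subunit of cytochrome c oxidase, with 27.7, 35.8, 25.5 and 31.3 CPM in old BI01 libraries, against 54.5, 59.0, 67.8 and 86.4 CPM in young ones. The groups lay well apart (-1.15, SE 0.22, adjusted p = 0.0148, kept in 5 of 8). It overlaps mt-Atp6 in the annotation, and its count was far under that of mt-Co1 (12840 ± 1887 and 19700 ± 4553 CPM, -0.62, adjusted p = 0.19). Whether the way reads were divided within this genome affects its level was not tested. Nuclear genes of oxidative phosphorylation had 0 of 39 called and a median of -0.22, which was 0.12 without the 2 libraries that stand apart. With library size alone it was 0.06, which was -0.23 relative to all genes. Fatty acid use had 0 of 20 called and a median of -0.23 (0.05 with library size alone, which was -0.24 relative to all genes). Among 16 clock genes 1 was called lower (0.999% of all genes were) and 0 higher. This was Nr1d2, a repressor of the clock loop (39.9 ± 11.5 CPM in old BI01 and 69.0 ± 15.2 CPM in young vehicle muscle, -0.79, SE 0.21, adjusted p = 0.0455). The list median was -0.23, or 0.03 with library size alone, which was -0.25 relative to all genes.

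On the high side were genes of the interferon response and of antigen presentation, with few calls and fold changes of 1 sign. All 25 interferon response genes had positive fold changes, with a median of 0.80. In 12 of the 25 all old BI01 libraries lay above all young ones, against 5.81% of all genes. Of the 25, 1 was called higher (0.456% of all genes were) and 0 lower. Oasl1 (ENSMUSG00000041827, chromosome 5, 114923240 to 114937915), an interferon-induced relative of the oligoadenylate synthetases, was at 6.93, 8.77, 8.44 and 5.51 CPM in old BI01 libraries, against 3.52, 2.16, 2.07 and 0.734 CPM in young ones. The groups did not overlap, and the rise was 3.46-fold (1.79, SE 0.46, adjusted p = 0.0437, kept in 2 of 8, 0.00397 to 0.338 over its alternatives). The antiviral synthetase Oas2 (0.96, adjusted p = 0.0763) and Irf9, a subunit of the factor that carries interferon signals to the nucleus (0.52, 0.102), were not called. Limma voom called 12 of the 25 higher and DESeq2 3, against 538 and 378 of all 17121 genes. The median was 0.52 without both libraries that stand apart. Summed CPM were 457 to 617 in old BI01 and 247 to 429 in young muscle, with no overlap.

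All 17 genes of antigen presentation likewise had positive fold changes (median 0.91), with 3 called higher (0.456% of all genes were) and 0 lower. In 8 of the 17 all old BI01 libraries lay above all young ones, against 5.81% of all genes, and the median was 0.84 without both libraries that stand apart. H2-K1 (ENSMUSG00000061232, chromosome 17, 33996017 to 34000333), a class I molecule that shows peptides from inside the cell to T cells, was at 334, 368, 393 and 464 CPM in old BI01 libraries, against 193, 230, 216 and 141 CPM in young ones. The lowest old BI01 library lay far above the highest young one (1.00, SE 0.24, adjusted p = 0.0391). H2-D1 (ENSMUSG00000073411, chromosome 17, 35262730 to 35267499), the other classical class I gene here, showed the same placement, at 379, 403, 426 and 499 CPM in old BI01 libraries, against 203, 244, 218 and 163 CPM in young ones (1.05, SE 0.25, adjusted p = 0.0391). H2-DMa, which helps load peptides onto class II molecules, averaged 20.2 ± 5.52 CPM in old BI01 and 10.4 ± 1.29 CPM in young vehicle muscle (0.96, SE 0.25, adjusted p = 0.0437). Each of the 3 calls was kept in 1 of 8 fits without a library. B2m, the light chain of class I molecules (0.91, adjusted p = 0.0511), the nonclassical class I gene H2-T23 (1.05, 0.0536) and Psmb8, a subunit of the immunoproteasome (1.10, 0.105), were not called. H2-K1 and H2-D1 are close paralogs, and counts of each may include reads of the other.

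The promoters of the called interferon and class I genes are shown because elements that respond to interferon are known, as background, in promoters of both kinds of gene. The sequences are the 250 bases before the RefSeq start (build GRCm38.p6, the build of the files), written 5′ to 3′ on the strand of the gene, with the letters GAANNGAAA or their reverse complement in capitals. The Oasl1 promoter is chr5:114922990-114923239 on the plus strand, the H2-K1 promoter chr17:34000348-34000597 on the minus strand (the farther upstream of 2 listed starts) and the H2-D1 promoter chr17:35262844-35263093 on the plus strand.
Oasl1: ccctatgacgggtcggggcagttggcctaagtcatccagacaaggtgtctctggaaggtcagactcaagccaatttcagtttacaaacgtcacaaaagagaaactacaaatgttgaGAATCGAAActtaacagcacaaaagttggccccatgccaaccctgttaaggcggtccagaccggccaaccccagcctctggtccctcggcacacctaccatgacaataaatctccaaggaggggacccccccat
H2-K1: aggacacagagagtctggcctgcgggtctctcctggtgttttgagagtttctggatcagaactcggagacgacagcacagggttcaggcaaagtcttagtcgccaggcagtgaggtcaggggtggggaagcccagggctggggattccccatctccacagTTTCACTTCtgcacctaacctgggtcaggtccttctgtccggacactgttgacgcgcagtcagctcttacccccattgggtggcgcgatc
H2-D1: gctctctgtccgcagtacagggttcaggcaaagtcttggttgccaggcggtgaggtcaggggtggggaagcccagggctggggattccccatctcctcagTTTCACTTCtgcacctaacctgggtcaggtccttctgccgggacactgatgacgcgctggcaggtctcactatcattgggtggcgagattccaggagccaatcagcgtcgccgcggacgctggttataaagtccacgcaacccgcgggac

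Searched on both strands, GAANNGAAA was present in 5.28% of 15229 promoters of tested genes (804) and the core of the interferon-stimulated response element (GAAA, 2 bases of any kind, GAAA) in 2.78% (423). A match to the first does not imply a match to the second. For 17 of the 25 interferon response genes a promoter was matched, and 5 of their 20 promoters (25.0%) held GAANNGAAA and 9 (45%) held the response element core. For 12 of the 17 antigen presentation genes, these were 3 (21.4%) and 2 (14.3%) of 14 promoters. The promoters of Oasl1, H2-K1 and H2-D1 held 1 match to GAANNGAAA each and none to the response element core. Those listed for H2-DMa (chr17:34122582-34122831 and chr17:34125268-34125517) held no match to either. They end well before the gene as counted (chr17, 34135182 to 34139101, plus strand), so the bases just before that start were not searched. A match is a run of letters in this window and was not tested as a site.

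**Figure D4:**
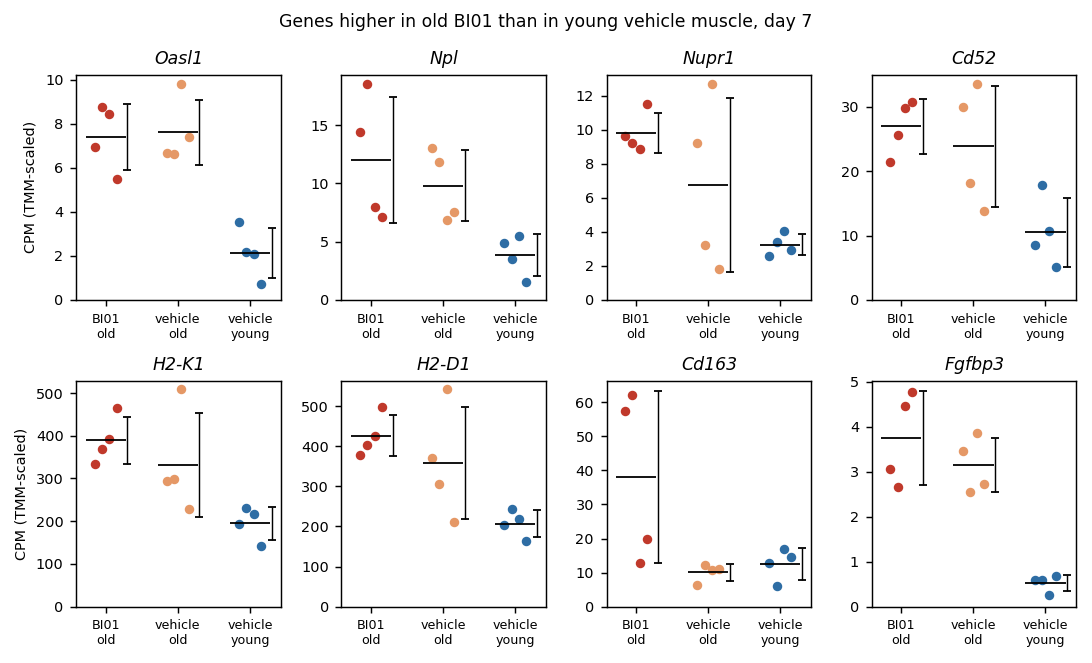
CPM (y axis, linear) of 8 genes called higher, 1 point per library, in old BI01, old vehicle and young vehicle muscle at day 7 (x axis); horizontal lines are means and bars are 1 SD (n = 4). H2-K1 stands at 334 to 464 CPM in old BI01 and 141 to 230 CPM in young muscle, whereas for Cd163 old BI01 libraries 1 and 2 alone lie above all young libraries by a wide margin.

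Macrophage genes had 26 of 28 members tested, all with positive fold changes (median 1.05, or 0.67 without both libraries that stand apart). Of the 26, 1 was called higher (0.456% of all genes were) and 0 lower. Cd163 (ENSMUSG00000008845, chromosome 6, 124304656 to 124330527), the haemoglobin scavenger receptor of resident-type macrophages, was at 57.3, 62.0, 12.7 and 20 CPM in old BI01 libraries, against 12.7, 5.94, 16.8 and 14.5 CPM in young ones. The call (1.61, SE 0.38, adjusted p = 0.034, kept in 4 of 8) rested on old BI01 libraries 1 and 2, and libraries 3 and 4 overlapped the young range or lay just above it. The lipopolysaccharide co-receptor Cd14 was at 18.6 ± 2.86 CPM in old BI01 and 8.95 ± 1.59 CPM in young muscle (1.05, adjusted p = 0.0511), and the folate receptor gene Folr2 at 10.1 ± 3.93 and 2.83 ± 0.65 CPM (1.83, 0.0596). The defining markers Csf1r (0.79, adjusted p = 0.322), Adgre1 (0.92, 0.264) and Cd68 (0.75, 0.446) were detected in every library and not called. Summed over the list, libraries held 1660 to 3540 CPM in old BI01 and 835 to 1600 CPM in young muscle, without overlap. The interferon and antigen presentation sums lay apart between the same groups, and the part of macrophage number in them was not tested.

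Other immune and blood genes were higher by median and not called. T and NK cell genes had 0 of 19 called, a median of 0.97 (0.56 without old BI01 library 4, 1.35 without young library 6, 0.56 by limma voom) and sums of 17.0 to 92.0 CPM in old BI01 against 17.2 to 34.6 CPM in young muscle. The T cell marker Cd3e was at 33 to 102 counts in old BI01 and 34 to 70 counts in young libraries (0.11, adjusted p = 0.943). Trac, the other T cell marker, was at 11 to 109 and 4 to 39 counts (1.24, adjusted p = 0.418). Of the 19 genes, 17 had positive fold changes. The 8 tested erythroid genes had 0 called and a median of 1.88, with the globin gene Hba-a1 at 33.5 ± 20.5 CPM in old BI01 and 7.6 ± 3.50 CPM in young muscle (2.15, adjusted p = 0.135). DESeq2 called 3 of the 8 higher, against 378 of all 17121 genes. B and plasma cell genes (5 tested, median 0.61) and neutrophil genes (5 tested, 0.83) had 0 called, and the B cell markers Cd79a and Ms4a1 had too few counts to test. S100a8, a neutrophil marker, had at most 28 counts in any of the 8 libraries. S100a9, the other neutrophil marker, had 8 to 20 counts in old BI01 and 0 to 2 counts in young libraries (4.09, adjusted p = 0.0617). Of the 5 neutrophil genes, 4 had positive fold changes.

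Complement genes had 1 of 16 called each way (0.456% of all genes were called higher and 0.999% lower). Their median was 0.76 (0.44 to 0.88 with 1 library left out). Cd55, which restrains complement on the cell surface, was at 29.9, 16.2, 51.0 and 62.7 CPM in old BI01 libraries, against 98.7, 93.9, 91.1 and 158 CPM in young ones. The groups lay well apart (-1.47, SE 0.31, adjusted p = 0.0288, kept in 4 of 8). Cd55 was also the only call (0.999% of all genes were called lower) among 15 genes of fibro-adipogenic progenitors, the mesenchymal cells between fibres (median 0.09). Their defining marker Pdgfra was at 41.4 to 56.3 CPM in old BI01 and 44.3 to 50.5 CPM in young libraries (0.03, adjusted p = 0.969). Among 11 tenocyte genes 1 was called higher (0.456% of all genes were) and 0 lower. This was Scx, a transcription factor of tendon cells (26.1 ± 6.80 CPM in old BI01, 12.8 ± 3.63 CPM in young muscle, 1.03, SE 0.27, adjusted p = 0.0491, kept in 1 of 8). Scx overlaps Bop1 in the annotation.

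The remaining large rises were in genes of several functions. Nupr1, a stress-induced nuclear protein, was at 9.66, 9.25, 8.87 and 11.5 CPM in old BI01 libraries, against 2.61, 3.43, 4.04 and 2.94 CPM in young ones, 2 tight groups with a wide gap (1.59, SE 0.37, adjusted p = 0.0334, kept in 3 of 8). Npl, an enzyme that breaks down sialic acid, averaged 12 ± 5.39 CPM in old BI01 and 3.86 ± 1.77 CPM in young vehicle muscle (1.63, SE 0.32, adjusted p = 0.0218, kept in 5 of 8). The leukocyte surface peptide gene Cd52 (1.35), the phosphatase gene Ptpn18 (1.38) and the G protein regulator gene Gpsm3 (1.35) rose with adjusted p of 0.0437, 0.0425 and 0.0491. Rps29, a protein of the small ribosomal subunit, averaged 59.9 ± 19.7 CPM in old BI01 and 19.9 ± 2.37 CPM in young vehicle muscle (1.59, SE 0.39, adjusted p = 0.0435), and Saysd1, a gene of uncertain role, was 2.42-fold higher (1.27, adjusted p = 0.0437). Ribosomal protein genes have many processed copies in the genome, which makes the count of Rps29 uncertain. Cd52 overlaps Crybg2 and Gpsm3 overlaps Pbx2.

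Cdkn1a, Cdkn2a, Mdm2 and Trp53, tied to the compound's stated target or to senescence, were not called by edgeR. Cdkn1a (ENSMUSG00000023067, chromosome 17, 29090976 to 29100727), the cell cycle inhibitor p21 and a p53 target, was at 262, 242, 119 and 98.3 CPM in old BI01 libraries, against 121, 118, 96.4 and 51.1 CPM in young ones. Old BI01 libraries 1 and 2 lay above all young ones and libraries 3 and 4 within their range (0.90, SE 0.41, adjusted p = 0.226). Cdkn2a (ENSMUSG00000044303, chromosome 4, 89274471 to 89294653), which encodes both p16 and the MDM2 inhibitor ARF, not separated in this count, was at 4.61, 3.15, 3.08 and 3.13 CPM in old BI01 libraries, against 1.23, 1.4, 2.02 and 4.34 CPM in young ones. Young library 7 lay inside the old BI01 range, so the groups overlapped (0.65, SE 0.46, adjusted p = 0.468). Mdm2 averaged 47.5 ± 4.93 CPM in old BI01 and 50.9 ± 3.81 CPM in young vehicle muscle (-0.10, SE 0.12, adjusted p = 0.718). Scaled by library size alone, which raised the median of all genes as well, Mdm2 had a positive fold change of 0.19 (adjusted p = 0.445). The adjusted p ran from 0.445 to 0.954 over its alternatives. Trp53, which encodes p53, averaged 34.9 ± 3.26 and 31.5 ± 5.77 CPM (0.15, SE 0.17, adjusted p = 0.70).

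Of 28 p53 targets and regulators edgeR and limma voom called 0. DESeq2 called 2 of them lower, against 545 of all 17121 genes, and the list median was 0.12 (0.02 without both libraries that stand apart). The cell death gene Bax was at 16.3 ± 1.31 CPM in old BI01 and 9.64 ± 1.10 CPM in young muscle (0.75, adjusted p = 0.171), and Ccng1, a cyclin induced by p53, at 328 ± 75.8 and 622 ± 225 CPM (-0.92, adjusted p = 0.0707). Of 33 senescence and secretory genes edgeR called 0, limma voom 3 higher and DESeq2 1 higher. Of all 17121 genes, limma voom called 538 higher and DESeq2 378. Of the 33 listed genes, 31 had positive fold changes, and the median was 0.66 (0.43 to 0.91 with 1 library left out). The chemokine gene Ccl8 was at 69.9 ± 20.9 CPM in old BI01 and 14.2 ± 5.11 CPM in young vehicle muscle (2.29, SE 0.70, adjusted p = 0.0788), and Ccl7 at 12.2 ± 8.64 and 3.41 ± 1.69 CPM (1.83, SE 0.52, 0.0605). The matrix protease gene Mmp3 was at 38.7 ± 27.7 and 12.1 ± 2.75 CPM (1.67, adjusted p = 0.105). Several of these are also products of macrophages.

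Genes of fibre rebuilding were not called. Embryonic and immature fibre proteins had 0 of 15 called and a median of 0.36. Myh3, the embryonic heavy chain, was at 1911 ± 942 CPM in old BI01 and 1294 ± 611 CPM in young vehicle muscle (0.56, SE 0.93, adjusted p = 0.799), and the perinatal chain Myh8 at 2444 ± 1270 and 2648 ± 701 CPM (-0.12, adjusted p = 0.94). The satellite cell and myogenic list had 0 of 18 called (median 0.26), with Myf5 at 15.8 ± 6.46 CPM in old BI01 and 11.1 ± 2.40 CPM in young muscle (0.51, adjusted p = 0.285) and Myog, the factor of differentiating myoblasts, at 119 ± 43.8 and 76.6 ± 26.9 CPM (0.63, 0.584). The satellite cell marker Pax7 was at 13.2 to 23.9 CPM in old BI01 and 13.7 to 23.6 CPM in young libraries (0.04, adjusted p = 0.964). Neuromuscular junction genes had 0 of 18 called (median 0.18), with the acetylcholine receptor subunit gene Chrna1 at 299 ± 58.0 CPM in old BI01 and 177 ± 29.9 CPM in young muscle (0.76, adjusted p = 0.284).

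Cell cycle genes had 0 of 27 called and a median of -0.002, which was -0.49 without the 2 libraries that stand apart. With library size alone it was 0.25, which was -0.03 relative to the median of all genes under that scaling. Fibrillar and network matrix genes had 0 of 26 called and a median of -0.18, or 0.07 with library size alone, which was -0.21 relative to all genes. The collagen gene Col1a1 was at 2150 to 4240 CPM in old BI01 and 2330 to 4560 CPM in young libraries (-0.16, adjusted p = 0.886). Endothelial genes had 0 of 15 called and a median of -0.31, with the junction marker Pecam1 at 51.4 to 96.2 CPM in old BI01 and 93.2 to 105 CPM in young libraries (-0.35, adjusted p = 0.284). Medians of the other lists without a call were 0.49 for slow fibre proteins, 0.48 for Schwann cells, 0.15 for matricellular genes, 0.13 for smooth muscle and 0.13 for immediate early genes. They were 0.08 for atrophy genes, 0.05 for cholesterol synthesis, -0.13 for heat shock (0.16 with library size alone, which was -0.13 relative to all genes) and -0.47 for adipocytes. With 1 library left out these medians ran from -1.04 to -0.07 for adipocytes and from 0.25 to 0.57 for Schwann cells, and took both signs for smooth muscle, atrophy, cholesterol synthesis and heat shock. In all, 584 tested genes of 33 lists gave 14 calls, 7 each way (2.40%, against 1.45% of all genes), and 23 lists had none.

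**Figure D5:**
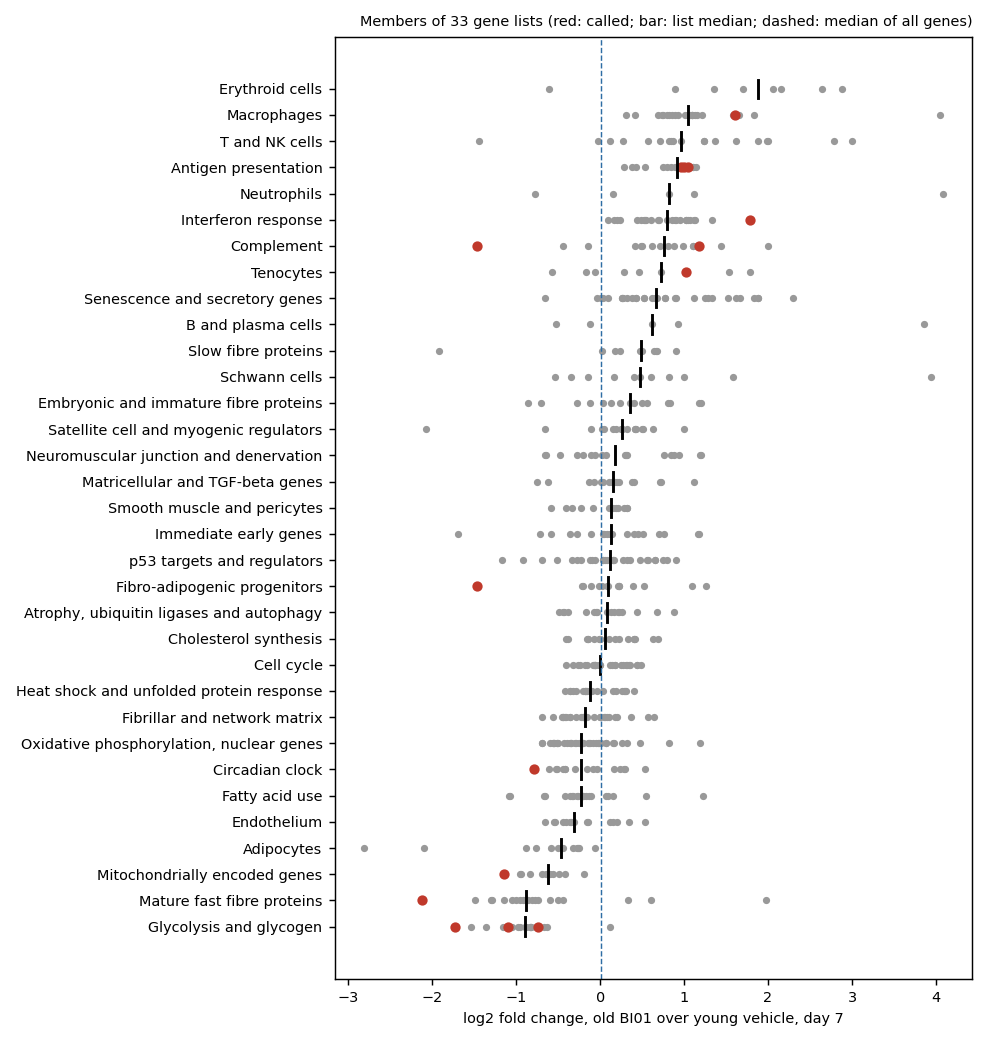
Log2 fold change of old BI01 over young vehicle muscle at day 7 (x axis) for the tested members of 33 gene lists (y axis, sorted by median), 1 point per gene, red where called, with a black bar at the list median and a dashed line at the median of all genes (0.01). Erythroid (1.88), macrophage (1.05) and antigen presentation (0.91) lists lie to the right and glycolysis (-0.89) and fast fibre (-0.88) lists to the left, with few red points in any.

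Of the 249 called genes, 4 kept the call in every fit that left out 1 of the 8 libraries, and these were picked out after their values were seen. Fgfbp3 (ENSMUSG00000047632, chromosome 19, 36917550 to 36919615), a secreted carrier of fibroblast growth factors, was at 3.07, 2.65, 4.47 and 4.78 CPM in old BI01 libraries, against 0.593, 0.594, 0.269 and 0.673 CPM in young ones. Every old BI01 library lay several-fold above every young one, 6.99-fold by the fit (2.81, SE 0.33, adjusted p = 2.66e-05, and 1.93e-13 to 0.037 over its alternatives). Mrpl1 (ENSMUSG00000029486, chromosome 5, 96209493 to 96266727), a protein of the mitochondrial ribosome, was at 14.8, 11, 13.4 and 15.5 CPM in old BI01 libraries, against 26.8, 19.8, 27.2 and 36.7 CPM in young ones, again without overlap (-1.01, SE 0.15, adjusted p = 0.00159). The pseudogene Rnf170-ps was at 0.524 ± 0.186 CPM in old BI01 and 2.65 ± 0.77 CPM in young vehicle muscle (-2.32, SE 0.36, adjusted p = 0.00162), and its reads may come from the gene it copies. The unnamed gene Gm42984, which overlaps Tapt1, had 104 counts over the old BI01 libraries and 3 over the young ones, a ratio of 26.3 (exact 95% interval 8.74 to 129, counting error only; edgeR adjusted p = 8.8e-05). Over all settings the adjusted p ran up to 0.136 for Mrpl1, 0.066 for Rnf170-ps and 0.0679 for Gm42984, so that Fgfbp3 alone of the 4 kept its call in every setting run.

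Old vehicle muscle at day 7 puts the comparison beside the same contrast without BI01, and shares the young libraries with it. Against young vehicle muscle, edgeR called 416 genes (2.43%), 43 higher (0.251%) and 373 lower (2.18%) in old vehicle muscle, and 7 without young library 7, 35 without old vehicle library 7 and 1012 without old vehicle library 9. A fit to the groups compared alone called 0, with 1834 genes at an unadjusted p under 0.05. With all libraries DESeq2 called 862 and limma voom 1263. With library size alone that split was 610 higher of 712 calls. Against old vehicle muscle, old BI01 muscle had 0 genes called (0%) by edgeR, with 1126 at an unadjusted p under 0.05, 1 called by DESeq2 and 0 by limma voom. Leaving out old vehicle library 9 gave 54 calls, and leaving out others gave at most 1.

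The named genes had these levels in the 3 groups of day 7. Fgfbp3 was at 3.74 ± 1.04 CPM in old BI01, 3.15 ± 0.61 CPM in old vehicle and 0.532 ± 0.179 CPM in young muscle, and Mybpc2 at 600 ± 335, 707 ± 431 and 2610 ± 1510 CPM. Log2 fold changes of old BI01 and of old vehicle against the same young libraries were -2.93 and -2.59 for Aqp4, -2.60 and -2.52 for Tuba8, 1.79 and 1.83 for Oasl1, and -1.47 and -1.42 for Cd55. They were 1.00 and 0.77 for H2-K1 and 1.05 and 0.79 for H2-D1, neither called in old vehicle muscle (adjusted p = 0.0788 and 0.0853). Cd163 had values of 1.61 and -0.30, and between the 2 old groups its fold change was 1.91 (adjusted p = 0.37). Nupr1 was 1.59 and 1.05 and mt-Co3 -1.15 and -1.62. None of these genes was called between old BI01 and old vehicle muscle, which does not show that their levels were the same. By list, medians for old BI01 and old vehicle against young were -0.89 and -1.06 for glycolysis, 0.80 and 0.71 for the interferon response, 1.05 and 0.78 for macrophages and 1.88 and 0.55 for erythroid genes.

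The called genes were next followed through libraries of the other groups. The means of those groups did not enter the comparison, but their libraries shared the estimate of spread behind the calls. In old vehicle muscle, day 7 against uninjured (where 64.2% of genes were called, 34.4% higher and 29.8% lower, and where the uninjured muscles belonged to the 35-day set), 151 of the 171 genes lower in old BI01 muscle were lower after injury (88.3%) and 5 were higher. Their median fold change there was -1.49, against 0.14 over all genes. Of the 78 genes higher in old BI01 muscle, 39 (50.0%) were higher after injury and 13 lower, with a median of 0.62. Fbp2 fell by 4.74 and Mybpc2 fell by 3.69 on the log2 scale after injury in old vehicle muscle, whereas Oasl1 rose by 3.79 and H2-D1 rose by 2.10. In uninjured muscle, old against young, 2302 genes were called (13.4%, 5.79% higher and 7.65% lower), and among them were 11 lower and 4 higher of the 171, and 7 higher and 2 lower of the 78. Fgfbp3 was among those higher in uninjured old muscle too, averaging 3.73 CPM in the old libraries, against 1.39 CPM in the young (1.43, adjusted p = 0.00316). H2-DMa (1.43, adjusted p = 0.00209), Cd52 (2.37, 0.00358) and Scx (0.83, 0.0478) were also higher there.

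At day 35, old BI01 against young vehicle muscle had 284 called genes (1.66%), with 2 of the 78 called higher there and 2 of the 171 called lower. The difference between the 2 days was tested directly, day 7 minus day 35, and 240 genes were called (1.40%, 0.444% positive and 0.958% negative), 52 of the 249 among them. The day-7 fold change that gave the 249 calls is part of this difference, so their overlap is not independent. Aqp4 was at 0.682 ± 0.658 CPM in old BI01 and 5.10 ± 3.44 CPM in young muscle at day 7, and at 34.7 ± 2.36 and 8.99 ± 4.44 CPM at day 35. The groups stood in opposite order on the 2 days, and the day-35 fold change of 1.95 was not called (adjusted p = 0.0858; difference -4.87, SE 0.88, adjusted p = 0.00449). Tuba8 was at 133 ± 23.5 CPM in old BI01 and 110 ± 3.89 CPM in young muscle at day 35, so that its fold changes were -2.60 at day 7 and 0.28 at day 35 (difference -2.88, SE 0.58, adjusted p = 0.0119). For Mrpl1 they were -1.01 and 0.09 (difference -1.10, adjusted p = 0.00881) and for Fgfbp3 2.81 and 0.82 (difference 1.98, adjusted p = 0.0227). Gm42984, with a difference of 5.16 (adjusted p = 0.000166), rests on the 3 counts of young day-7 muscle.

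Among protein-coding genes with at least 5 CPM in a group, predicted genes left out, the 4 each way with the smallest p-values of that difference were not called at day 7. Mkl1, a co-activator of serum response factor, was at 63.9 ± 8.61 CPM in old BI01 and 83.5 ± 7.12 CPM in young muscle at day 7 (-0.39, adjusted p = 0.264), and at 57.3 ± 13.2 and 12.5 ± 2.81 CPM at day 35 (2.20). The difference was -2.59 (SE 0.28, adjusted p = 2.23e-06). Acot2, which splits acyl-CoA in mitochondria, was at 9.81 ± 2.01 CPM in old BI01 and 9.23 ± 1.74 CPM in young muscle at day 7, and at 9.45 ± 2.99 and 70.3 ± 24.4 CPM at day 35 (difference 2.98, SE 0.39, adjusted p = 6.52e-05). Fbxo21, a subunit of a ubiquitin ligase, was at 19.3 ± 1.31 and 17.7 ± 3.39 CPM at day 7 and at 16.3 ± 1.71 and 34.8 ± 3.64 CPM at day 35 (difference 1.22, adjusted p = 0.00297). Stk11ip (1.62), Osgin1 (2.15), Tnfaip2 (-2.30), Podxl (-1.86) and Efr3b (-3.10) had differences with adjusted p of 0.00119, 0.00285, 6.3e-05, 0.00012 and 0.000211. In uninjured muscle, old vehicle against young vehicle, Mkl1 averaged 53.6 CPM in the old libraries, against 10.3 CPM in the young (2.39, adjusted p = 1.33e-08) and Acot2 at 12.6 and 104 CPM (-3.05, adjusted p = 5.57e-08). The columns of the uninjured libraries carry the name of the 35-day set, so the day and the set of libraries cannot be told apart in this difference.

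Fold changes at day 7 also went with gene length, a relation looked for after the data were seen. In 5 groups of nearly equal size by listed length, short to long, the median fold change of old BI01 against young was 0.22, 0.11, 0.03, -0.05 and -0.14, and calls were 23, 21, 8, 7 and 7 higher and 10, 20, 34, 46 and 49 lower. For the shortest and the longest group, medians were 0.06 and 0.04 in old vehicle against young muscle at day 7. They were 0.20 and -0.155 in old BI01 against old vehicle muscle at day 7, and 0.31 and -0.12 in uninjured old against young muscle. The median length was 2608 bases for the genes called higher and 5420 bases for those called lower. Within libraries, the median of the shortest group minus that of the longest was 0.02, -0.02, 0.21 and 0.29 in old BI01 and -0.42, -0.06, -0.10 and -0.20 in young libraries. Ribosomal protein genes, which are short, had 4 of 81 called higher (Rpl28, Rpl23a, Rpl35a and Rps29), 0 lower and a median of 0.54, chosen after values were seen. Called higher were 0.456% of all genes, and 23 of the 2860 protein-coding genes in the shortest group. With the trend of each library with length removed, the median of the ribosomal protein genes was 0.40. That fit called 360 genes (93 higher, 267 lower), 211 of the 249 among them. The part of gene length in single calls was not tested further.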

How the data were processed

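The authors deposited a table of read counts for 54532 genes in 32 libraries, 4 in each of 8 groups. Per the labels' protocols, total RNA was extracted with a miRNeasy kit and mRNA libraries were prepared and sequenced at Novogene. Alignment was with HISAT2 to mm10, per the submitters' processing notes. Not given in the sources used here are strandedness, the counting tool, the release of the annotation and the version of the aligner. The deposited table also lists a gene length, given by the authors in bases.

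Column names gave each library's group and a number, not a single sample, and 0 columns of counts were left unused. Genes were filtered with filterByExpr, leaving 17121, of which 14293 were protein-coding. Counts were scaled by TMM and tested with edgeR 4.0.16 (quasi-likelihood, robust, R 4.3.3) with 1 mean per group over all 32 libraries, which share an estimate of spread. DESeq2 1.42.0, limma 3.58.1 voom, other scalings and filters, the compared groups alone and each library left out were alternatives. Removing the length trend and removing both libraries that stand apart were chosen after seeing the data. Named genes were the 8 largest rises and 8 largest falls among called protein-coding genes whose groups did not overlap (higher mean of 5 CPM or more), up to 3 called members per list, Cdkn1a, Cdkn2a, Mdm2 and Trp53, the 4 each way with the smallest p in the difference between days (protein-coding, 5 CPM or more in a group), and tissue markers. The comparison and all gene lists were chosen with earlier results of these data known. Intervals of counts cover counting error only. Results for some list members are not reported here.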

Additional observations from a re-analysis of the deposited data

Results flagged for a closer look

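Of 126 groups of 4 libraries checked among the named genes, 7 held a library far from the other 3, where chance gives about 1 in 20 groups. Young library 7 was that library for Mybpc2 (4850 CPM), Cd55 (158 CPM) and Nr1d2 (91.6 CPM), in which it was the highest, and for H2-DMa (8.44 CPM), in which it was the lowest. Old BI01 library 1 was the highest for Cdkn2a (4.61 CPM) and the lowest for Podxl (17.3 CPM). Old vehicle library 7 was the highest for Trp53 (48.0 CPM).

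The fold change of old BI01 against young vehicle muscle differed between day 7 and day 35 by a direct edgeR test for 15 named genes. The difference, day 7 minus day 35 on the log2 scale, was -4.87 for Aqp4, -2.88 for Tuba8, -3.15 for Car14, -1.10 for Mrpl1 and -2.73 for Rnf170-ps. It was 1.98 for Fgfbp3 and 5.16 for Gm42984. For genes not called at day 7 it was 2.98 for Acot2, 1.62 for Stk11ip, 2.15 for Osgin1, 1.22 for Fbxo21, -2.59 for Mkl1, -2.30 for Tnfaip2, -1.86 for Podxl and -3.10 for Efr3b. These genes not called at day 7 were named by the smallest p in this same test. The others were named by day-7 values that enter it, so the count of 15 follows in part from how genes were named.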

How the results depend on the processing

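No paired analysis was possible because the numbers in the column names of the count table are not the replicate numbers of the labels and the groups compared share only number 4. For old BI01 against young vehicle muscle at day 7, the 249 calls became 706 with library size alone, 79 without the filter, 923 with DESeq2, 1034 with limma voom, 14 with only the groups compared, 3 without both libraries that stand apart, and 4 to 527 with 1 library left out. For old vehicle against young vehicle muscle, the 416 calls became 712 with library size alone, 171 without the filter, 862 with DESeq2, 1263 with limma voom, 642 with the length trend removed, 7 to 1012 with 1 library left out, and 0 by edgeR with only the groups compared, where 1834 genes had an unadjusted p under 0.05. For old BI01 against old vehicle muscle, the 0 calls by edgeR (1126 at an unadjusted p under 0.05) became 1 with DESeq2, 0 with limma voom and 0 to 54 with 1 library left out. In uninjured muscle the 2302 calls became 1524 without the filter, 1411 with only the groups compared and 1013 to 2850 with 1 library left out. For the difference between days the 240 calls became 140 without the filter, 587 with DESeq2, 416 with only the groups compared and 79 to 279 with 1 library left out. Mdm2 changed sign with library size alone, where the median of all genes rose as well (0.19, not called in either). Single genes kept their direction and their side of the threshold in 306 values under other settings and 277 with a library left out, and kept the direction without the call in 81 and 139. Medians of lists moved beyond their spread in 21 values under other settings and 9 with a library left out, and by less in 276 and 255. The causes were not tested.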
